A study of Rattus norvegicus with 6 samples.

Results

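The genes described here encode 10 regulators of G-protein signalling (RGS proteins) in the calcifying rat aorta: Rgs1, Rgs2, Rgs3, Rgs4, Rgs5, Rgs10, Rgs12, Rgs14, Rgs16 and Rgs19. They were chosen by symbol, and all 10 were found among the 24005 gene symbols of the deposited expression table. The animals were rats with chronic kidney disease, produced by a subtotal removal of the left kidney followed by removal of the right. Both groups ate a diet with 1.2% phosphorus, which speeds up calcification. The exosome group received engineered exosomes, called ANCR/E7-EXO in the labels, at 10 mg/kg through the tail vein at 5-day intervals, and the saline group received an equal volume of saline over 13 weeks. The length of exosome treatment is not stated separately. The labels give 3 aorta libraries per group and name no strain, age or sex, no aorta from rats without kidney disease was analysed here, and the labels do not state that each library came from a separate rat. P-values therefore measure the spread between these libraries.

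An RGS protein binds the active, GTP-bound alpha subunit of a heterotrimeric G protein and speeds up hydrolysis of the GTP, so that the signal of a G-protein-coupled receptor ends sooner. In the vessel wall these receptors carry the signals of angiotensin, endothelin, noradrenaline and thrombin, and RGS proteins set how strongly and for how long smooth muscle responds to them. The small RGS proteins of the R4 subfamily (here Rgs1, Rgs2, Rgs3, Rgs4, Rgs5 and Rgs16) act on Gq and Gi subunits. Those of the R12 subfamily (Rgs10, Rgs12 and Rgs14) and Rgs19 of the RZ subfamily act mainly on Gi.

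Promoters are shown for 5 of the genes: Rgs2, Rgs4 and Rgs5, which had the highest levels, and Rgs12 and Rgs16, whose libraries did not overlap between the groups. Each sequence is from RefSeq, build GRCr8, and runs 5′ to 3′ on the strand of the gene from 250 bases before to 50 bases after the annotated start. Capitals mark matches, on either strand, to the cAMP response element TGACGTCA or its core TGACG, the AP-1 site TGANTCA, the TATA box TATAAA, the GC box GGGCGG and the CArG box, the element bound by serum response factor.
Rgs2 promoter, GRCr8 chr13:58352617-58352916, minus strand: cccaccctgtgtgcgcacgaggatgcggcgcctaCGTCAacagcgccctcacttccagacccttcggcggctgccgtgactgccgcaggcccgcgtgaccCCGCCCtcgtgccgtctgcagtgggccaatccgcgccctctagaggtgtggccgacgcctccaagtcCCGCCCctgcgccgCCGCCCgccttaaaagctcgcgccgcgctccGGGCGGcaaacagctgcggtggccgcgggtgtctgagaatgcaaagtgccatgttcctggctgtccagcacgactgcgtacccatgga
Rgs4 promoter, GRCr8 chr13:84475835-84476134, minus strand: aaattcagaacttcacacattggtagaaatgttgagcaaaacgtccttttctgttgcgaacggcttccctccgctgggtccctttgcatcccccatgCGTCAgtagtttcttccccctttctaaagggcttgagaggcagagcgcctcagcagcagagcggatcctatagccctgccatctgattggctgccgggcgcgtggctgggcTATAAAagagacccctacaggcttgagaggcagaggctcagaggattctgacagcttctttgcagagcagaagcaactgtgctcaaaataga
Rgs5 promoter, GRCr8 chr13:84380827-84381126, plus strand: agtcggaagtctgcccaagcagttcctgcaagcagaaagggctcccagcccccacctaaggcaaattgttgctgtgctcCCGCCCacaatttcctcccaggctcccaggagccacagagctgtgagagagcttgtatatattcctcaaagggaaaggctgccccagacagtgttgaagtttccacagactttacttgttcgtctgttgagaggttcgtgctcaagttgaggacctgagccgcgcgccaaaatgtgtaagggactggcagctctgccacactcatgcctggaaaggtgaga
Rgs12 promoter, GRCr8 chr14:80034810-80035109, minus strand: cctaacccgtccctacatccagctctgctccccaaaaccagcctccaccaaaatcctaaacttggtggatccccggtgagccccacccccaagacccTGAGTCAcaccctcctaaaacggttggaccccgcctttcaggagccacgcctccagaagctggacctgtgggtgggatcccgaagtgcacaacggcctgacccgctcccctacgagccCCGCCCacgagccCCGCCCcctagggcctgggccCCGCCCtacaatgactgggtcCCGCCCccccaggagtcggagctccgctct
Rgs16 promoter, GRCr8 chr13:68437870-68438169, plus strand: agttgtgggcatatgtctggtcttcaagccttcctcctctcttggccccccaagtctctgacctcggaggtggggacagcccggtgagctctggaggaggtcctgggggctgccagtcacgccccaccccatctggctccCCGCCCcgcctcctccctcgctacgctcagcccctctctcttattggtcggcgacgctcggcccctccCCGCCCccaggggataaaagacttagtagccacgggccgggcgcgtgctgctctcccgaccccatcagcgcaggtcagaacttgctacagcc
The core TGACG lies inside the full cAMP response element. It was present in the windows of Rgs2, 216 bases upstream of the start, and of Rgs4, 153 bases upstream, and in 22.0% of the 27457 RefSeq windows of this length. The windows of Rgs1 and Rgs3, which are not shown, held this core and the TATA letters as well. The AP-1 letters were found in Rgs12 (7.33% of all windows) and the TATA letters in Rgs4, 42 bases upstream (14.3%). GC boxes numbered 4 in Rgs2, 4 in Rgs12, 2 in Rgs16 and 1 in Rgs5, against none in the Rgs4 window (34.9% of all windows hold at least 1). None of the 5 windows held the full cAMP response element (1.91%) or a CArG box (1.64%). Rgs4 and Rgs5 are neighbours on chromosome 13 with 0 annotated genes between them, and 5 of the 10 genes lie on that chromosome. These matches describe letters only.

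The libraries held 28063355 to 44561082 reads or read pairs in total, recovered from the steps of the deposited FPKM values (fragments per kilobase of gene, scaled to library size). Smooth muscle markers, 8 of 8 of which were detected, summed to 21814, 15370 and 19900 FPKM in exosome 1, 2 and 3 and to 22271, 14830 and 14016 FPKM in saline 1, 2 and 3, and none was at 0. Some libraries stood apart on other lists. Heat shock genes summed to 4588 and 8667 FPKM in exosome 1 and 3 but to 827.5 FPKM in exosome 2, against 1080 to 1710 FPKM in saline libraries. Immediate early genes, transcribed soon after a cell is stimulated or a tissue handled, summed to 797.0 to 1227 FPKM with exosomes, against 1365 FPKM in saline 1 and 2353 and 2848 FPKM in saline 2 and 3. Adipocyte markers reached 1099 FPKM in saline 2, against 318.1 to 627.3 FPKM in the other libraries.

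RGS expression in this tissue was dominated by Rgs5, Rgs2 and Rgs4. On the length-scaled FPKM scale the mean levels over the 6 libraries were 77.1 ± 18.2 FPKM for Rgs5, 60.4 ± 28.8 FPKM for Rgs2 and 44.8 ± 23.1 FPKM for Rgs4 (SD, n = 6, both groups together). These 3 genes made up 76.0% to 81.6% of the summed RGS level in exosome libraries and 80.4% to 82.8% in saline libraries. Rgs10 (17.8 FPKM) and Rgs3 (14.5 FPKM) came next, then Rgs12 (6.22 FPKM), Rgs19 (3.19 FPKM), Rgs1 (1.37 FPKM), Rgs16 (1.26 FPKM) and Rgs14 (0.400 FPKM). Neighbours in this order were often not separated: Rgs5 exceeded Rgs2 in 4 of 6 libraries, Rgs2 exceeded Rgs4 in 4, Rgs10 exceeded Rgs3 in 4, and Rgs1 exceeded Rgs16 in 2. Rgs4 exceeded Rgs10, Rgs3 exceeded Rgs12 and Rgs16 exceeded Rgs14 in 6 of 6. The level of a gene rests on the length the authors used, which was 546 bases for Rgs5 and 685 for Rgs2 but 2917 for Rgs4. Rgs3, at 3910 bases, held 1499 to 3443 recovered reads per library. Rgs5 held 1155 to 1696, fewer than Rgs3 in every library, so its first place depends on that length. Whether the short models leave out untranslated ends is not given in the sources used here.

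**Figure D1:**
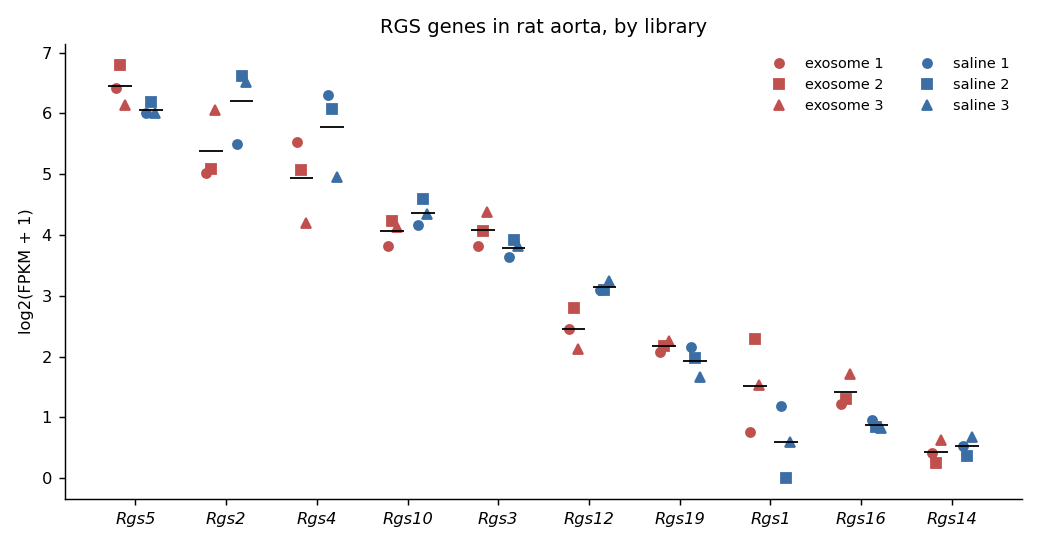
Level of each of the 10 RGS genes as log2(FPKM + 1), ordered by mean level, with 1 point per library (exosome red and left, saline blue and right, marker shape giving the library number) and a line at the group mean. Rgs12 and Rgs16 are the genes whose exosome and saline points do not overlap, and Rgs2 and Rgs4 spread widely within both groups.

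None of the RGS genes passed the test between exosome-treated and saline-treated rats. The test was limma on log2(FPKM + 1) over the 11742 genes with a mean of at least 1 FPKM, and 9 of the 10 RGS genes reached that level, Rgs14 being the exception. At a Benjamini-Hochberg adjusted p under 0.05, 0 of 9 were called, against 0.00852% of all genes (1 gene, Zbtb16), and limma-voom on recovered reads also called 0 of them. At an unadjusted p under 0.05, 2 of 9 were called, Rgs16 higher and Rgs12 lower, where 16.0% of all genes were, 6.75% higher and 9.24% lower. The groups did not overlap for the same 2 of 9, where 21.1% of all genes were apart, 9.40% higher and 11.7% lower, so the share was near the background. Of the 9, 5 had a positive and 4 a negative difference, where 39.3% of all genes tested had a positive one. Sign counts of the other lists below are set against that same share. Rgs1 and Rgs16 reached the 1 FPKM minimum only through their exosome libraries, where they were high. Both counts of 2, which include Rgs16, and the count of positive signs therefore rest in part on the minimum. The median also rests on these 2 genes. It was 0.24 over the 9 genes, -0.31 over the other 7 and 0.07 over all 10 without the minimum. The median thus gives the list no direction. The count of 2 genes with separate groups was 5 without exosome 1, 3 without exosome 2, 4 without exosome 3, 6 without saline 1, 4 without saline 2 and 3 without saline 3. The share of all genes with separate groups was then 27.7%, 48.4%, 25.8%, 39.9%, 29.7% and 26.9% in that order. Leaving out a library can only add to these counts.

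**Figure D2:**
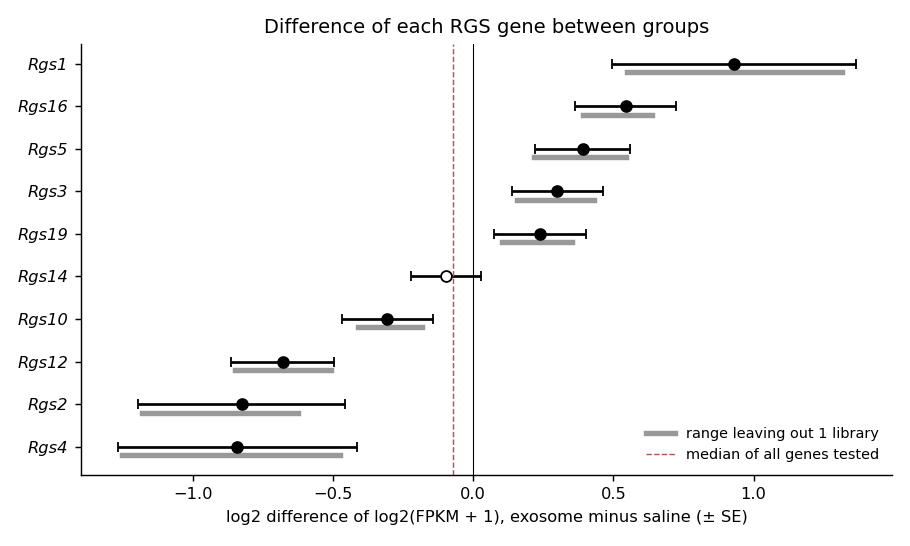
Difference of each RGS gene on the log2(FPKM + 1) scale, exosome minus saline, as a point with its limma standard error, the range over fits that leave out 1 library (grey) and the median of all genes tested (dashed line, -0.07). The open point is Rgs14, which lay below the expression minimum and is taken from the fit without that minimum. No grey range crosses 0 for the 9 genes tested.

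Rgs2, which acts mainly on Gq and whose loss raises blood pressure in mice, was lower on average in exosome-treated aortas. It stood at 31.3, 33.0 and 65.7 FPKM in exosome 1, 2 and 3, against 44.5, 97.0 and 90.7 FPKM in saline 1, 2 and 3. Exosome 1 and 2 were the lowest libraries, but exosome 3 lay above saline 1, so the groups overlapped. The means were 43.3 ± 19.4 FPKM with exosomes and 77.4 ± 28.7 FPKM with saline (SD, n = 3 each), and the log2 difference came to -0.83 ± 0.37 (SE, limma adjusted p = 0.324). It was -1.16 without exosome 3 and -1.18 without saline 1, where the groups no longer overlapped (adjusted p = 0.578 and 0.196), and between -0.68 and -0.63 without any 1 of the other 4 libraries. Immediate early genes ran alongside: 13 of 15 tested members had a negative difference, 5 had separate groups, all lower (11.7% of all genes did so), and their sum followed the same library order in that saline 1 was the lowest saline library and exosome 3 the highest exosome library. Cyr61 stood at 180.1, 152.4 and 168.0 FPKM in exosome libraries and at 305.9, 845.0 and 930.1 FPKM in saline libraries (adjusted p = 0.237). The part of these genes in the Rgs2 difference was not tested. In whole tissue, fewer cells of a type and less RNA per cell cannot be told apart.

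Rgs4, which shortens Gq and Gi signals and whose protein is degraded when its N-terminal cysteine is oxidised, had a difference near that of Rgs2 but in other libraries. Its values were 45.2, 32.5 and 17.4 FPKM in exosome libraries, against 77.7, 66.2 and 29.9 FPKM in saline libraries. Exosome 3 was the lowest library and saline 1 the highest, and saline 3 lay below exosome 1 and 2, so the groups overlapped. The means were 31.7 ± 13.9 FPKM with exosomes and 58.0 ± 24.9 FPKM with saline, for a log2 difference of -0.84 ± 0.43 (SE, limma adjusted p = 0.361). Without saline 3 the difference was -1.25 and the groups separated (adjusted p = 0.589), and without exosome 3 it was -0.48 (adjusted p = 0.733). The values rested on 2259 to 7608 reads per library, where counting error is 2.10% at most, against a 2.60-fold range within the exosome group and again within the saline group.

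Rgs5, a gene used to mark pericytes and arterial smooth muscle, was the neighbour of Rgs4 with a difference of opposite sign. It stood at 84.2, 110.7 and 69.7 FPKM with exosomes and at 63.0, 71.6 and 63.2 FPKM with saline. Exosome 1 and 2 lay above all saline libraries, while exosome 3 lay just below saline 2. The means were 88.2 ± 20.8 FPKM with exosomes and 65.9 ± 4.92 FPKM with saline, the log2 difference was 0.39 ± 0.17 (SE) and the limma adjusted p was 0.315. Without exosome 2, the highest library, the difference was 0.22 (adjusted p = 0.315). When libraries were rescaled to the same sum, exosome 3 came to 69.5 FPKM against a saline maximum of 69.4 FPKM. Rescaled to the median of ratios, it came to 74.8 FPKM against 70.1 FPKM. The groups then separated, as did those of 19.7% and 22.5% of all genes tested, respectively. Pericyte markers did not move one way: 5 of 10 were higher and 5 lower, with none at 0 in all libraries and a sum of 698.7 to 747.9 FPKM in exosome libraries and 718.8 to 832.0 FPKM in saline libraries. Among them Kcnj8, a potassium channel subunit of mural cells, stood at 37.4 ± 10.8 FPKM with exosomes and 81.4 ± 19.5 FPKM with saline (log2 difference -1.11, adjusted p = 0.255), and Higd1b at 1.45 ± 0.390 FPKM with exosomes and 0.641 ± 0.268 FPKM with saline (log2 difference 0.58, adjusted p = 0.284). Higd1b reached the 1 FPKM minimum only through its exosome libraries, and its saline libraries held 10 to 18 reads. Cspg4 had a log2 difference of 0.695 (limma adjusted p = 0.291) with overlapping groups.

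The ratio of Rgs5 to Rgs4 FPKM was 1.86, 3.40 and 4.01 in exosome libraries, against 0.811, 1.08 and 2.11 in saline libraries, with an overlap between exosome 1 and saline 3. Rgs5 made up 42.7%, 49.2% and 34.7% of the summed FPKM of the 10 genes in exosome libraries and 27.7%, 25.2% and 27.6% in saline libraries, which did not overlap. The sum itself was 197.0, 224.8 and 201.0 FPKM with exosomes and 227.1, 283.8 and 228.7 FPKM with saline. That separation of the sums was lost when libraries were rescaled to the same sum or to the median of ratios. These ratios and sums were chosen after the values were seen and are given without a test.

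**Figure D3:**
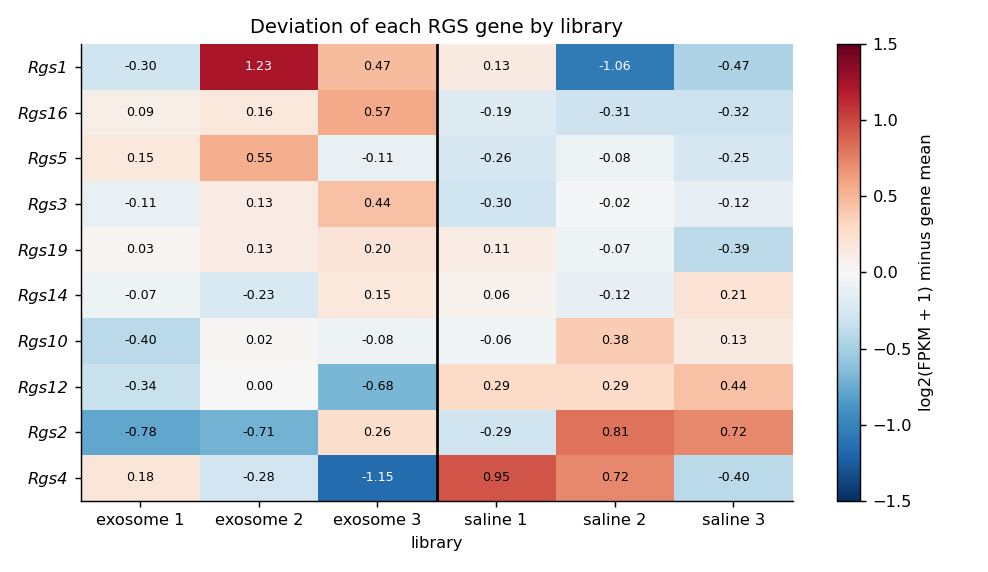
Deviation of each RGS gene in each library from its own mean over the 6 libraries, in log2(FPKM + 1) units, with exosome libraries left of the black line and saline libraries right of it. Rgs2 and Rgs4, at the bottom, differ in which libraries are high: exosome 3 is at 0.26 for Rgs2 and at -1.15 for Rgs4.

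Of the other R4 genes, Rgs16 had separate groups. Rgs16, which acts on Gi and Gq subunits and is induced in activated lymphocytes, stood at 1.34, 1.46 and 2.29 FPKM in exosome libraries and at 0.935, 0.784 and 0.771 FPKM in saline libraries. No saline library reached the lowest exosome library, and exosome 3 was the highest. The means were 1.70 ± 0.514 FPKM with exosomes and 0.830 ± 0.0912 FPKM with saline, a ratio of 2.04, and the log2 difference came to 0.54 ± 0.18 (SE, limma adjusted p = 0.281). The pseudocount of 1 compresses the change of so low a gene. On recovered reads, 111 to 276 per exosome library and 63 to 85 per saline library, voom gave a log2 difference of 1.02 ± 0.29 (SE, adjusted p = 0.239). Rgs8, its neighbour on chromosome 13, had 1 read in exosome 1 and 0 in the other libraries.

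Rgs1, a lymphocyte and macrophage gene whose protein dampens chemokine responses, had the widest fold range among exosome libraries, at 5.64-fold. It stood at 0.689, 3.89 and 1.88 FPKM with exosomes and at 1.28, 0 and 0.506 FPKM with saline. Exosome 2 was the highest library and exosome 1 lay below saline 1. Saline 2 had 0 reads, which allows up to 0.0725 FPKM at 3 counts, and the other libraries had 24 to 152 reads. The log2 difference came to 0.93 ± 0.43 (SE, limma adjusted p = 0.337). It was 0.55 without exosome 2, 2.07 with a pseudocount of 0.1 and 2.998 in voom (adjusted p between 0.324 and 0.404). Rgs3, which exists as long and short forms and acts on Gi and Gq, stood at 13.2, 15.7 and 19.8 FPKM with exosomes and at 11.4, 14.1 and 13.1 FPKM with saline, where exosome 2 and 3 exceeded every saline library. Its log2 difference came to 0.30 ± 0.16 (SE, limma adjusted p = 0.381). Its groups separated after rescaling to the median of ratios, as did those of 22.5% of all genes tested. The difference was 0.16 without exosome 3 and 0.04 under library weights (adjusted p = 0.767 and 0.826).

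Among the R12 genes, Rgs12 had the smallest p of all 10. Rgs12, the large member that carries further protein-binding domains beside its RGS domain, stood at 4.51, 5.96 and 3.35 FPKM in exosome libraries and at 7.51, 7.52 and 8.44 FPKM in saline libraries. Every exosome library lay below every saline library. Exosome 2, which had the lowest heat shock sum of all libraries, was the exosome library nearest to saline. Exosome 3, with the highest sum, was the farthest. The saline libraries did not follow that order, as saline 3 had both their highest heat shock sum and their highest Rgs12 level. Exosome 2 lay below every saline library in Rgs12 and in the heat shock sum alike. The part of heat shock in the Rgs12 difference was not tested. The means were 4.61 ± 1.31 FPKM with exosomes and 7.82 ± 0.534 FPKM with saline, a ratio of 0.589, and the log2 difference was -0.68 ± 0.18 (SE). The unadjusted p was 0.00687, which ranked 311 among 11742 genes, and the limma adjusted p was 0.255. When 1 library was left out, its log2 difference lay between -0.85 (without exosome 2) and -0.51 (without exosome 3). With both exosome 1 and 3 left out, a setting chosen after the data were seen, the difference was -0.34 and the adjusted p was 0.910, with exosome 2 as the lone treated library, assumed to vary like the saline libraries.

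Rgs10, a short Gi regulator best known from macrophages and microglia, stood at 13.1, 17.9 and 16.6 FPKM with exosomes and at 16.9, 23.2 and 19.3 FPKM with saline. Saline 2 was the highest library and exosome 1 the lowest, and the groups overlapped through saline 1. The log2 difference came to -0.31 ± 0.16 (SE, limma adjusted p = 0.371). It was -0.18 without exosome 1 and -0.19 without saline 2 (adjusted p = 0.692 and 0.648). Rgs14, which binds Gi subunits through a second domain and is best known from the hippocampus, stood at 0.326, 0.187 and 0.550 FPKM with exosomes and at 0.448, 0.283 and 0.607 FPKM with saline, from 15 to 70 reads per library. In the fit without an expression minimum its log2 difference came to -0.10 ± 0.12 (SE, limma adjusted p = 0.754), and counting error alone reaches 25.8% at the fewest reads. Rgs19, the RZ member also known as GAIP, stood at 3.24, 3.54 and 3.77 FPKM with exosomes and at 3.47, 2.94 and 2.17 FPKM with saline. Saline 3 was the lowest library, and the log2 difference came to 0.24 ± 0.16 (SE, limma adjusted p = 0.474). It was 0.10 without saline 3 (adjusted p = 0.836).

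Several of these genes are also expressed by leukocytes. Leukocyte and macrophage markers had a positive difference in 10 of 10, with none at 0, and summed to 122.1 to 148.9 FPKM in exosome libraries and 87.4 to 101.6 FPKM in saline libraries. Their leading members were Cd163, at 14.98 ± 2.13 FPKM with exosomes and 6.45 ± 0.533 FPKM with saline (adjusted p = 0.143), Mrc1 (log2 difference 0.62) and C1qb (log2 difference 0.52). Of 10 lymphocyte markers 9 lay below 1 FPKM and none was at 0 in all libraries. Their sum was 15.1 to 21.3 FPKM with exosomes and 13.6 to 14.7 FPKM with saline, nearly all of it Cd4, which rat macrophages also express. Rgs1, Rgs16 and Rgs19 had positive differences, while Rgs10 and the platelet and leukocyte gene Rgs18 had negative ones. Their part in the RGS differences was not tested. Endothelial markers were higher in 7 of 10, with sums of 172.1 to 252.3 FPKM in exosome libraries and 121.6 to 163.8 FPKM in saline libraries. Separate groups were found for 5 of these 10, all higher, where 9.40% of all genes were. The leukocyte and macrophage list also had 5 of 10, all higher. In both lists 0 genes passed the limma threshold, and the part of endothelial cells in the RGS differences was not tested.

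Outside the 10 genes most listed members of the family had low levels, though Rgs18 averaged 2.76 FPKM, above Rgs1, Rgs16 and Rgs14. Of 13 further RGS genes and RGS-binding genes listed, 12 were in the table, and 11 of these had a mean below 1 FPKM. Rgs18 passed that minimum, at 1.76, 2.61 and 3.12 FPKM with exosomes and 2.65, 3.29 and 3.12 FPKM with saline (log2 difference -0.22, adjusted p = 0.551). Rgs13 and Rgs21 were at 0 in all 6 libraries. Rgs11 was not analysed here.

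Among the partners of RGS proteins, none of the listed genes passed the limma threshold, and list medians are set against -0.07 for all genes. Of 11 tested G-alpha genes 6 were higher and 5 lower, with a median log2 difference of 0.05. Gna15, among the higher genes, averaged 1.30 FPKM with exosomes and 0.951 FPKM with saline. It reached the 1 FPKM minimum only through its exosome libraries, so this count and median rest in part on the minimum. Such genes were not counted in the other partner lists. Gnai3, a Gi subunit, stood at 78.6 ± 1.39 FPKM with exosomes and 70.9 ± 1.07 FPKM with saline with separate groups (log2 difference 0.15, adjusted p = 0.414), and Gna14, of the Gq family, at 1.80 ± 0.354 FPKM with exosomes and 3.90 ± 2.11 FPKM with saline (log2 difference -0.72, adjusted p = 0.316). Of 10 tested G-beta and G-gamma genes 4 were higher and 6 lower (median -0.09), and 3 had separate groups, all lower in exosome libraries, as 11.7% of all genes had. Gnb5, the beta subunit that pairs with RGS proteins of the R7 subfamily, was among them, at 7.58 ± 1.96 FPKM with exosomes and 12.2 ± 1.54 FPKM with saline (log2 difference -0.64, adjusted p = 0.261).

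Of 19 tested effectors 14 had a positive and 5 a negative difference (median 0.10). Separate groups were found for 5, 4 higher and 1 lower, where 21.1% of all genes had them, 9.40% higher and 11.7% lower. The adenylyl cyclase gene Adcy4 stood at 11.3 ± 3.40 FPKM with exosomes and 6.27 ± 1.14 FPKM with saline (adjusted p = 0.261). None of the 19 was past the threshold in limma, 5 had an unadjusted p under 0.05 (4 higher and 1 lower) where 6.75% of all genes were higher and 9.24% lower at that p, and voom was not counted for these lists.

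On the receptor side none of the genes listed passed the limma threshold. Of 16 tested Gq-coupled vascular receptors 6 were higher and 10 lower (median -0.07). Separate groups were found for 1 higher and 1 lower gene, where 9.40% and 11.7% of all genes had them. Ednra, the endothelin A receptor of smooth muscle, stood at 4.60, 5.44 and 4.69 FPKM in exosome libraries and at 5.99, 13.3 and 7.61 FPKM in saline libraries (log2 difference -0.69, adjusted p = 0.289), and F2r, the thrombin receptor, at 35.1 ± 1.66 FPKM with exosomes and 25.8 ± 5.30 FPKM with saline (log2 difference 0.45, adjusted p = 0.284), both with separate groups. Of 13 tested genes on the Gi-coupled list, which also names the ligand gene Apln, 7 were higher and 6 lower (median 0.00). None of them had separate groups, where 21.1% of all genes did. Among 6 tested receptor kinases and arrestins, 3 were higher and 3 lower. Grk5, a kinase that desensitises active receptors, stood at 25.4 ± 1.28 FPKM with exosomes and 19.7 ± 0.809 FPKM with saline (log2 difference 0.35, adjusted p = 0.256).

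**Figure D4:**
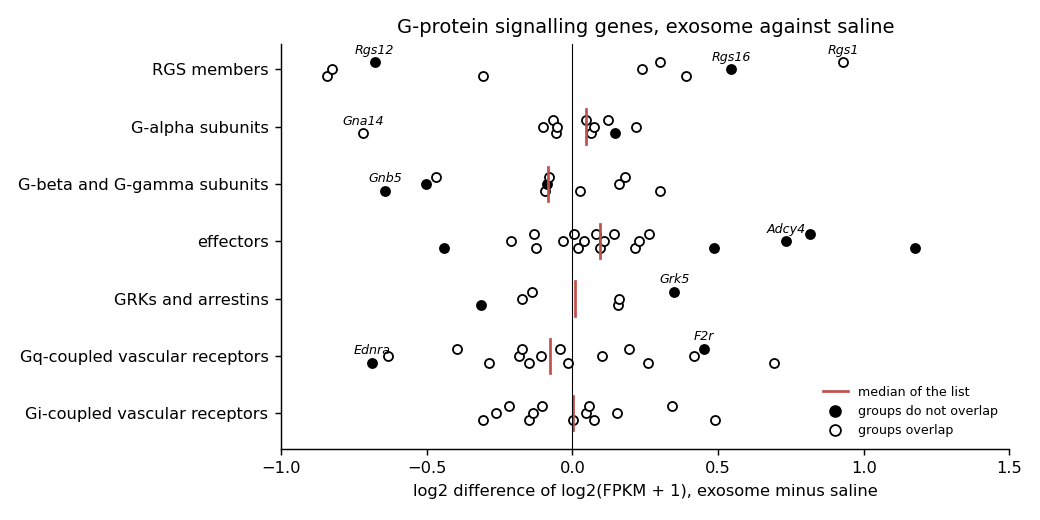
Log2 difference on the log2(FPKM + 1) scale, exosome minus saline, of each tested gene of the RGS list and 6 lists of its signalling partners (1 point per gene, filled where the groups do not overlap, red line at the list median). The list medians, not drawn for the RGS genes, lie between -0.09 and 0.10, and the effectors have 5 filled points.

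The genes closest in pattern were sought for the 3 RGS genes with the smallest p, as the smallest root mean square difference of centred log2(FPKM + 1) values over the 6 libraries among 11008 tested genes, leaving out symbols of unnamed loci and microRNAs. For Rgs12 these were Gnb5 (0.053), B3gntl1 (0.055) and Aass (0.057). For Rgs16 they were Arid3a (0.037), Vav1 (0.040) and Rin3 (0.065). Arid3a and Vav1 averaged 0.650 and 0.755 FPKM with saline and, like Rgs16, reached the 1 FPKM minimum only through their exosome libraries. The minimum itself therefore favours this likeness. For Rgs5 they were Lgalsl (0.066), Adgrg6 (0.069) and Mtus2 (0.086). In each of these exosome 2 was the highest library, as for Rgs5, which the search itself selects for. How close a match any gene would find among 11008 candidates over 6 libraries was not tested.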

How the data were processed

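The authors deposited FPKM for 24005 gene symbols in 6 columns, each matched to 1 sample by its title. Per the labels' protocols, libraries were made from total RNA with a SMARTER mRNA-Seq kit. The submitters' processing notes name DESeq2 1.28.1, whose use by the authors is not described. No label or header states the aligner, counting, strand setting, build or annotation, so reads of overlapping or near-identical genes could not be separated. Whole reads were recovered from the FPKM steps for 18430 genes, 100.0% of those above 0, within 0.02 reads, and gave lengths and library totals. Intervals, floors and counting errors cover counting error only.

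Groups were compared on log2(FPKM + 1) by limma (version 3.58.1, R 4.3.3) with an intensity trend, two-sided, over 11742 genes, adjusted by Benjamini-Hochberg at 0.05. Log2 differences on this scale understate the change of low genes. The fit was also run on simulated libraries with independent noise for each gene. These held no differences between whole libraries, so that run does not cover such differences. The RGS genes, lists and tests were chosen with earlier results of these data known. All 10 RGS genes are named. Of each other list at most 3 genes with the smallest p are named, and other genes were picked with values in view. Alternatives tried were pseudocounts, filters, scalings, moderation, library weights, voom, a replicate block and each library left out. Those with both exosome 1 and 3 left out, and with gene-by-gene library weights, were added after the data were seen. Protein identity was not analysed here. Of the effectors with the smallest p, 1 is named, and the others are not reported here. RefSeq promoters matched 10 of 10 symbols. Python 3.11.15, pandas 2.3.3, numpy 2.4.6 and matplotlib 3.10.9 were used.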

Additional observations from a re-analysis of the deposited data

How the results depend on the processing

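In the alternatives tried, the 9 tested RGS genes kept the sign of their difference, and 0 passed the adjusted threshold except under library weights. There 3268 genes passed, 4 of them RGS genes (Rgs2, Rgs5, Rgs10 and Rgs12). That estimate did not converge and gave exosome 1 a weight of 9.20 and exosome 2 a weight of 0.305. With a gene-by-gene estimate of the weights, 618 genes and 1 RGS gene (Rgs12, adjusted p = 0.0447) passed. Over its alternatives the adjusted p of Rgs12 ranged between 0.0135 and 0.910. Quantile normalization called 2 genes in all. Separate groups numbered 1 RGS gene with a mean of at least 5 FPKM, where fewer genes are tested and 21.8% of them were apart. They numbered 3 after rescaling to the same sum, where 19.7% of all genes were apart, and 4 after rescaling to the median of ratios, where 22.5% were. Leaving out 1 library gave 0 to 9 genes past the threshold in all, 0 RGS genes among them, and 3 to 6 RGS genes with separate groups. With both exosome 1 and 3 left out, 0 genes passed and 7 RGS genes had separate groups, where 51.5% of all genes did. The replicate block called 1 gene in all and 0 RGS genes. It lowered the SE of Rgs4 from 0.43 to 0.12 (limma adjusted p = 0.149) and that of Rgs2 from 0.37 to 0.23 (0.290). The SE also fell for Rgs3, Rgs5 and Rgs10 but rose for Rgs1, Rgs12, Rgs16 and Rgs19. The labels state no pairing of same-numbered libraries. Correlations of their deviations were 0.0682, 0.0958 and -0.165, which with 3 libraries per group cannot settle whether they shared a batch. Depth limits Rgs14 and Rgs1, with as few as 15 and 0 reads in a library.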
